A study of Mus musculus with 6 samples.

Results

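Differentiated cultures of C2C12, a mouse myoblast line, hold 2 kinds of cell side by side, and the comparison here sets their RNA against each other: multinucleated myotubes (MT) and the mononucleated reserve cells (RC) that stayed unfused. It uses 2 MT libraries and 2 RC libraries, 4 of the 6 libraries of the series, chosen by their titles. The other 2 libraries are of Day 0 proliferating myoblasts (MB), which entered the fit to estimate the spread and are quoted only for orientation. By the labels neither Day 7 population carried a genetic change or a drug. They had been kept in DMEM with 2% horse serum and penicillin-streptomycin, and were then parted by mild trypsinization, which lifts myotubes before the flatter mononucleated cells. Each group had 2 biological replicates by the labels, of polyA RNA from a single cell line, and no gate or marker sort is described for the separation. The labels give the Day 7 time point, while the study's methods describe a shorter differentiation in general.

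Withdrawal of serum drives confluent C2C12 myoblasts out of the cell cycle and into fusion under the bHLH factors MyoD and myogenin, with MEF2 factors switching on the sarcomere. A fraction escapes this course and stays mononucleated, with low MyoD activity and active Notch signalling. These reserve cells can re-enter growth later and are used as a culture model of the muscle satellite cell. Since the libraries are bulk, fewer cells of a type and less RNA per cell cannot be told apart in any value below.

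Levels are given in CPM, a gene's count scaled to one common library size after TMM scaling, which corrects for a few genes taking a large share of a library. CPM is not divided by gene length. Differences are log2 fold changes of MT over RC with 95% intervals and Benjamini-Hochberg adjusted p-values from edgeR's quasi-likelihood test over all genes tested. A gene was called when its adjusted p was under 0.05, and rose or fell below refers to such calls, with MT as the numerator. The 4 Day 7 libraries held between 15658875 and 19344981 estimated counts, and 15467 of 25308 genes with a count passed the filter on low counts. Replicates lay close, with a correlation of log CPM of 0.976 between the MT libraries and 0.977 between the RC libraries across genes, and a biological coefficient of variation of 12.9%. They still differed by more than counting noise (chi-square per degree of freedom of 7.77 and 7.51), so no library was a copy of another.

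Marker genes went with the labels, but they were chosen with earlier results of these data known, so they are no independent check. All 7 myotube markers tested were higher in the libraries labelled MT. Myog, the bHLH factor of terminal differentiation, stood at 1162 and 1144 CPM in MT and 521 and 514 CPM in RC (log2 fold change 1.16, 95% interval 1.07 to 1.24, adjusted p = 9.46e-08). Mymk, the membrane protein required for myoblast fusion, was at 1259 and 1259 CPM in MT and 428 and 444 CPM in RC (log2 fold change 1.53, 95% interval 1.45 to 1.61, adjusted p = 1.94e-08). All 5 reserve cell markers were lower in MT. Pax7, the transcription factor of satellite cells, measured 8.75 and 11.2 CPM in MT and 61.3 and 65.5 CPM in RC (log2 fold change -2.66, 95% interval -2.92 to -2.39, adjusted p = 3.94e-07). Notch3 stood at 57.7 and 56.8 CPM in MT and 342 and 345 CPM in RC (log2 fold change -2.59, 95% interval -2.69 to -2.48, adjusted p = 6.86e-09). Not all of these markers set RC apart from MB. In MB, Pax7 stood at 72.9 and 68.3 CPM and Notch3 at 315 and 326 CPM, near their RC values. Myf5, also used as a marker of cycling myoblasts, was at 53.6 and 60.2 CPM in MB and 20.3 and 21.03 CPM in RC. Heyl and Cd34 were lower in MB (43.1 and 47.2, and 31.6 and 32.6 CPM) than in RC (72.3 and 69.6, and 52.7 and 45.9 CPM). Neither population was free of the other's genes. RC libraries held Ckm, the muscle creatine kinase, at 277 and 296 CPM beside a mean of 7.01 CPM in MB, and MT libraries held Mki67, a nuclear protein of cycling cells, at 36.2 and 44.4 CPM beside 213 and 219.9 CPM in RC. How far carried-over cells account for either was not tested.

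Markers of other cell types were examined next. Adipoq, Plin1, Ptprc, Adgre1 and Sox10 had 0 counts in every one of the 6 libraries, and Pecam1 and Kdr had 0 counts in the Day 7 libraries. Of the fibroblast list 9 of 12 tested members fell and 0 rose, with a summed level of 467 and 473 CPM in MT and 1178 and 1152 CPM in RC. In MB the sum was 970 and 968 CPM. Its defining markers split. Ly6a, the Sca-1 antigen, fell (16.7 and 13.8 CPM in MT and 84.3 and 72.3 CPM in RC; log2 fold change -2.36, 95% interval -2.62 to -2.10, adjusted p = 6.65e-07), whereas Pdgfra did not pass the threshold (7.82 and 8.55 CPM in MT and 10.6 and 9.58 CPM in RC; log2 fold change -0.30, 95% interval -0.66 to 0.05, adjusted p = 0.127) and Thy1 had 0 counts in 3 of the 4 Day 7 libraries. Dpt, another defining marker, did not pass either, at a low level (0.427 and 0.698 CPM in MT and 1.16 and 1.09 CPM in RC; log2 fold change -0.98, adjusted p = 0.361). In MB, Ly6a stood at 192 and 198 CPM, above both RC libraries. The part of these genes in the results below was not tested.

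Most genes tested differed between the populations. Of 15467 genes tested, 8598 (55.6%) were called, 4200 (27.2%) higher and 4398 (28.4%) lower in MT. The median over all genes tested was -0.0067, with the middle 90% of genes between -2.17 and 1.78 (fitted log2 fold changes). Larger changes leaned towards RC. 1459 genes (9.43%) were called and at least 2-fold higher in MT, and 2168 (14%) at least 2-fold lower. By glmTreat, which tests against the 2-fold size itself, 2050 genes (13.3%) passed. The change of at least 4-fold was met by 517 genes upwards and 834 downwards. The balance of directions depended on scaling. Taking library totals in place of TMM moved the median to -0.21 and left 2932 genes higher and 5670 lower (34.1% of calls higher instead of 48.8%), so that log2 changes of up to about that shift carry no firm direction.

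**Figure D1:**
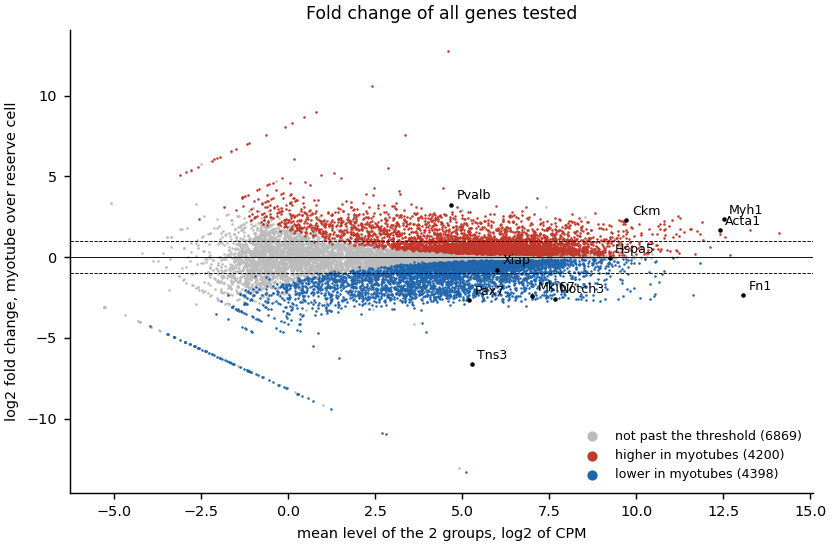
Fold change of all genes tested. Each point is 1 gene, with the log2 of its mean CPM over both groups on the x axis and its fitted log2 fold change (MT over RC) on the y axis. Red points are the 4200 genes called higher in MT, blue points the 4398 called lower and grey points the 6869 not past the threshold. Dashed lines mark 2-fold. The straight diagonal runs of points are genes with no count in 1 of the groups, whose fitted size depends on the prior count, and 26 genes at 0 in every Day 7 library are not drawn.

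The genes at least 2-fold higher in MT made up 28.8% and 28.6% of all counts in the MT libraries and 10.96% and 10.9% in the RC libraries. Those at least 2-fold lower made up 4.47% and 4.5% in MT and 17.5% in each RC library. Of protein-coding genes 61.8% of 12911 were called, compared with 30% of 340 lincRNA genes and 21.7% of 539 antisense genes. The gap lay in smaller changes. Calls of at least 2-fold numbered 1205 higher and 1938 lower for protein-coding genes. For lincRNA genes they numbered 56 and 31, and for antisense genes 48 and 55. The classes were not matched for count level, so the shares called do not rank their differences. Whether the counting used strand is not given in the sources used here, so reads of an antisense gene and its partner cannot be told apart.

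Of the 15 largest increases among genes of at least 10 CPM in a group, all but Cd24a were of genes under 10 CPM in both RC libraries. Pvalb, the cytosolic calcium buffer of fast fibres, was at 49.9 and 42.8 CPM in MT and 5.09 and 4.56 CPM in RC (log2 fold change 3.26, 95% interval 2.57 to 3.95, adjusted p = 3.05e-05). Ampd1, the muscle AMP deaminase, measured 25.7 and 24.4 CPM in MT and 2.93 and 3.06 CPM in RC (log2 fold change 3.07, 95% interval 2.60 to 3.53, adjusted p = 1.01e-05). Cd24a, a small glycosylated surface antigen, was the most strongly expressed gene of this set, at 196 and 211 CPM in MT and 23.5 and 23.1 CPM in RC (log2 fold change 3.13, 95% interval 2.95 to 3.30, adjusted p = 2.06e-08). Its MT values lay far above both RC values, with little spread in either group. Slc44a4, of the choline transporter-like family, stood at 54.7 and 52.9 CPM in MT and 7.77 and 6.99 CPM in RC (log2 fold change 2.86, 95% interval 2.48 to 3.25, adjusted p = 2.22e-06). Slc5a5, the sodium-iodide symporter, rose 7.42-fold and Slc10a4, of the bile acid cotransporter family, 8.92-fold. Hsd17b13, a lipid droplet protein, rose 10.3-fold (14.4 and 16.3 CPM in MT and 1.36 and 1.61 CPM in RC). The remaining members were Rnase6, Cox7a1, Jakmip1, Mlip, Inpp5j, Wfdc1 and mt-Nd4l, which rose between 7.96 and 9.98-fold. mt-Nd4l overlaps mt-Nd4 on the mitochondrial genome, so its count could be split between them. Sacm1l, a phosphoinositide phosphatase, headed the ranking at 10.03 and 30.5 CPM in MT and 0.151 and 0.0518 CPM in RC, the latter from 3 counts and 1 count, but its replicates were far apart (log2 fold change 7.54, 95% interval 2.75 to 12.33, adjusted p = 0.0146), and its adjusted p was 0.0524 without MT replicate 2, 0.0756 without RC replicate 1 and 0.0879 without RC replicate 2. Jakmip1 moved from 3.09 to 4.05 without RC replicate 2.

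The 15 largest decreases held genes of differing kinds. Bmp4, a BMP ligand, was at 8.6 and 6.98 CPM in MT and 61.1 and 54.5 CPM in RC (log2 fold change -2.90, 95% interval -3.21 to -2.59, adjusted p = 5.79e-07). Ereg, the EGF receptor ligand epiregulin, measured 1.28 and 1.86 CPM in MT and 12.8 and 11.9 CPM in RC (log2 fold change -2.95, 95% interval -3.46 to -2.45, adjusted p = 8.75e-06). Mfap5, a microfibril protein, stood at 5.48 and 5.87 CPM in MT and 42.5 and 46.99 CPM in RC (log2 fold change -2.97, 95% interval -3.30 to -2.65, adjusted p = 6.2e-07). Tgfbr3, the betaglycan co-receptor of TGF-beta, was at 2.28 and 2.73 CPM in MT and 22.3 and 21.9 CPM in RC (log2 fold change -3.13, 95% interval -3.63 to -2.63, adjusted p = 6.0e-06). Both Mfap5 and Tgfbr3 were low in MB as well, with means of 0.441 and 1.57 CPM, so that RC was the high group among the 3. Melk and Dlgap5, genes of dividing cells, fell 7.79 and 7.5-fold, Nr4a2, an orphan nuclear receptor, 8.004-fold, and Hacd4, of the very long chain fatty acid dehydratase family, 7.75-fold. Several of the top 15 rested on uneven libraries. Tns3, a focal adhesion tensin, measured 0.853 and 0.698 CPM in MT and 113 and 40.04 CPM in RC (log2 fold change -6.63, 95% interval -8.10 to -5.15, adjusted p = 4.32e-05), and its log2 fold change was -5.70 without RC replicate 1. Ramp2, a calcitonin receptor partner, stood at 1.28 and 1.11 CPM in MT and 9.53 and 50.1 CPM in RC, and moved from -4.64 to -3.01 without RC replicate 2 and -5.40 without RC replicate 1. Lpp, a zyxin relative, was at 29.3 and 5.93 CPM in MT and 125 and 159 CPM in RC and moved from -3.05 to -4.58 without MT replicate 1 and -2.28 without MT replicate 2. Pcdhga3, a clustered protocadherin that shares exons with its neighbours, lost its call without either MT library (adjusted p = 0.0607 and 0.0655) and stood at -1.24 without RC replicate 1 (adjusted p = 0.115) and -4.01 without RC replicate 2. Without MT replicate 2, Htr1b moved from -3.21 to -4.38 and Kirrel3 from -3.01 to -3.73, and Sec16b ranged from -2.61 to -4.29 with either MT library left out.

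The contractile apparatus rose almost as a block. Of thick filament genes 18 of 19 rose and none fell (median 2.20), of thin filament genes 19 of 19 (median 1.89), and of Z-disc genes 23 of 24 (median 1.88), beside 27.2% of all genes tested. Counts of every list below stand beside the same shares of all genes tested, 27.2% higher and 28.4% lower. Myl1, the fast essential light chain, measured 4239.7 and 4003 CPM in MT and 769 and 781 CPM in RC (log2 fold change 2.41, 95% interval 2.33 to 2.49, adjusted p = 3.02e-09). Mylpf, the fast regulatory light chain, stood at 6401 and 6015 CPM in MT and 1379 and 1318 CPM in RC (log2 fold change 2.20, 95% interval 2.11 to 2.30, adjusted p = 6.86e-09). Myom3, an M-band protein, was at 633 and 652 CPM in MT and 142 and 139 CPM in RC (log2 fold change 2.20, 95% interval 2.09 to 2.30, adjusted p = 9.88e-09). Acta1, skeletal alpha-actin, measured 8199.6 and 8172 CPM in MT and 2535 and 2558 CPM in RC (log2 fold change 1.68, 95% interval 1.63 to 1.74, adjusted p = 2.89e-09). Tnnt3, fast troponin T, stood at 3519 and 3421 CPM in MT and 704 and 713 CPM in RC (log2 fold change 2.29, 95% interval 2.21 to 2.37, adjusted p = 3.41e-09). In each case the replicates of a group lay close to each other and the groups were far apart. These genes were named for the smallest adjusted p in their lists, a choice that favours this. Other members were less clear, such as Myl3 (adjusted p = 0.0371) and Neb (adjusted p = 0.0427). Des, the muscle intermediate filament, rose 2.74-fold (5268 and 5294 CPM in MT and 1908 and 1951 CPM in RC), and Pdlim3, a Z-disc adaptor, 4.09-fold. Mylk4 was the only thick filament gene not to pass (2.49 and 4.6 CPM in MT and 5.19 and 4.46 CPM in RC; log2 fold change -0.44, 95% interval -1.35 to 0.47, adjusted p = 0.377). Actin and sarcomeric myosin genes are close paralogs, and reads shared between them could be divided differently by another counter. The same holds for genes with near-identical copies, such as Eno1, Pgam1 and ribosomal protein genes.

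The proportions of sarcomeric myosin heavy chains are given as a description. Myh1, an adult fast form, rose 5.12-fold, and Myh3, the embryonic form, 3.09-fold (5101 and 5298 CPM in MT and 1661 and 1702 CPM in RC). Summed per kilobase over 6 sarcomeric heavy chains, Myh1 took 55.1% and 55% in MT and 45% and 45.2% in RC, and Myh3 29.1% and 29.4% in MT and 39.8% and 39.6% in RC. Myh4, the fastest form, took 4.49% and 4.35% in MT and 2.76% and 2.78% in RC. Myh1 and Myh4 thus took larger shares, and Myh3 a smaller share, in both MT libraries than in both RC libraries, and these shares were not tested. Within each group the replicates agreed to within 1 percentage point.

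**Figure D2:**
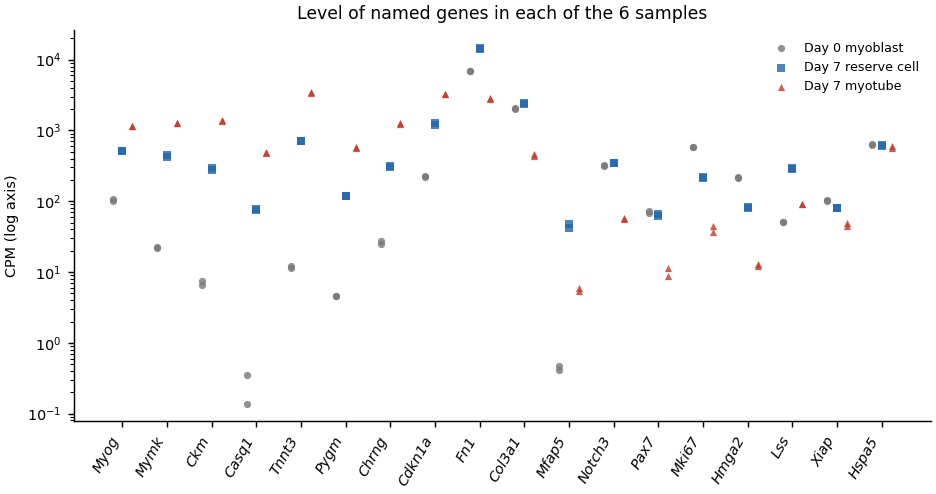
Level of 18 named genes in each of the 6 samples, as CPM on a log axis. Grey circles are Day 0 MB, blue squares Day 7 RC and red triangles Day 7 MT, with 1 point per library. Muscle genes such as Ckm and Casq1 lie highest in MT with RC between MT and MB, while Fn1, Notch3 and Pax7 lie lowest in MT, and Hspa5 lies at nearly the same level in all 3 groups.

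Promoters of these genes are shown because members of a list moved together. RefSeq windows of 300 bases (250 before and 50 after the annotated start, GRCm38.p6) were searched on both strands for 5 motifs of 6 letters, namely the E-box CAGCTG bound by MyoD and myogenin, a second E-box of the form CAGGTG, the TEAD motif CATTCC, the RBPJ motif TGGGAA of Notch signalling and the cell cycle element CHR, spelled TTTGAA. On the reverse strand CATTCC reads GGAATG, which can overlap a match to TGGGAA. Windows were found for 10612 of the genes tested. In the following pair, of a thick and a thin filament gene, capitals mark every match. The Myl1 window lies on the minus strand of chr1:66945007-66945306 and the Acta1 window on the minus strand of chr8:123894726-123895025.
Myl1: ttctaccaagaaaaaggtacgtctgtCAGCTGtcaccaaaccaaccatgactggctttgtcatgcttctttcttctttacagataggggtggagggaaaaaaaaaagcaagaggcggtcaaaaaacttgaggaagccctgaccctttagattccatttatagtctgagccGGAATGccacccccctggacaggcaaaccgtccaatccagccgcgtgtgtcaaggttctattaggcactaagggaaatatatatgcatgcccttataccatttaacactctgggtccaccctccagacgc
Acta1: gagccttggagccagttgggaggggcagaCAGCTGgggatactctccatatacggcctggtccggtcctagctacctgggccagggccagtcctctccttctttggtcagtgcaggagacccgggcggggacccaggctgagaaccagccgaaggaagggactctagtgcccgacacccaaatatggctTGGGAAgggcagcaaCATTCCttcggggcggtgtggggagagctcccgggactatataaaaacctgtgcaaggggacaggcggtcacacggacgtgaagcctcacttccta

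CAGCTG was present in 8 of 15 thin filament windows (53.3%) and 7 of 17 thick filament windows (41.2%), compared with 15.4% of all windows. CATTCC was present in 41.2% and 33.3% of the thick and thin filament windows and 12% of all. Over every gene at least 2-fold higher the shares were closer to the background, at 22.6% for CAGCTG and 16.3% for CATTCC. A match is a run of letters and not a measured binding site.

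Genes that assemble and turn over the sarcomere followed it. Of the chaperone list 9 of 11 rose, among them Hspb7 (5.13-fold), a small heat shock protein, and Unc45b (4.04-fold), the myosin co-chaperone. Hsp90aa1, the stress-inducible HSP90, was the only one to fall, at 414 and 438 CPM in MT and 688 and 651 CPM in RC (log2 fold change -0.65, 95% interval -0.75 to -0.55, adjusted p = 5.23e-06). Of muscle ubiquitin ligases and Kelch adaptors 10 of 15 rose and 2 fell. The larger fall was that of Klhl33 (log2 fold change -1.43, adjusted p = 0.0020). Trim63, the ligase MuRF1, was at 154 and 149.5 CPM in MT and 37.8 and 33.9 CPM in RC (log2 fold change 2.08, 95% interval 1.89 to 2.27, adjusted p = 2.35e-07), whereas Fbxo32, the ligase atrogin-1 that is often paired with it, fell 1.23-fold (134 and 139 CPM in MT and 167 and 168 CPM in RC).

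Excitation and calcium handling were likewise higher. In the triad list 15 of 16 rose (median 1.77), including Cacna1s, the voltage sensor, at 801 and 786 CPM in MT and 229 and 224 CPM in RC (log2 fold change 1.81, 95% interval 1.69 to 1.93, adjusted p = 5.18e-08). Bin1, which shapes T-tubules, measured 2748 and 2694 CPM in MT and 875 and 834 CPM in RC. All 9 tested genes of sarcoplasmic reticulum calcium handling rose (median 2.03). Casq1, the fast calsequestrin, rose 6.32-fold (485 and 492 CPM in MT and 76.1 and 78.4 CPM in RC), and its cardiac relative Casq2 4.09-fold. Of the neuromuscular junction list 11 of 16 rose. The acetylcholine receptor subunits Chrng, Chrnd and Chrna1 rose 4.09, 3.55 and 2.28-fold, and the muscle sodium channel Scn4a 5.24-fold. Agrn, the agrin that clusters these receptors, went the other way, at 21.4 and 19.7 CPM in MT and 67.2 and 62.3 CPM in RC (log2 fold change -1.66, 95% interval -1.85 to -1.46, adjusted p = 9.01e-07), and Kcnj2 fell 1.21-fold, a call that did not hold without RC replicate 1 (adjusted p = 0.0501). In the dystrophin complex 11 of 16 rose, among them Sgca (2.91-fold), a sarcoglycan of striated muscle. Sgce, the widely expressed epsilon-sarcoglycan, fell 4.79-fold (5.9 and 6.51 CPM in MT and 31.1 and 28.6 CPM in RC; log2 fold change -2.26, 95% interval -2.55 to -1.98, adjusted p = 1.45e-06).

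Energy metabolism rose in 2 tiers. Genes of muscle-type energy supply were 19 of 20 higher with a median of 2.07. Pygm, the muscle glycogen phosphorylase, stood at 576 and 558 CPM in MT and 117 and 118 CPM in RC (log2 fold change 2.27, 95% interval 2.16 to 2.38, adjusted p = 9.88e-09). Mb, myoglobin, was at 999 and 962 CPM in MT and 275 and 248 CPM in RC (log2 fold change 1.91, 95% interval 1.78 to 2.03, adjusted p = 5.39e-08). The general mitochondrial machinery rose less. 47 of 49 nuclear-encoded oxidative phosphorylation subunits rose (median 0.86), as did 17 of 18 TCA cycle genes (median 0.71) and 13 of 15 fatty acid oxidation genes (median 0.58). Atp5b, the catalytic subunit of ATP synthase, measured 1916 and 1866 CPM in MT and 1124 and 1160.4 CPM in RC (log2 fold change 0.73, 95% interval 0.66 to 0.80, adjusted p = 3.34e-07). Idh3b fell 1.68-fold against the rest of its cycle. Of mitochondrially encoded genes 12 of 13 rose (median 1.55) and mitochondrial genes as a whole took 5.3% and 5.37% of counts in MT and 2.36% in each RC library. mt-Co1, cytochrome c oxidase subunit 1, was at 25467 and 26190.1 CPM in MT and 9230.02 and 9279 CPM in RC (log2 fold change 1.48, 95% interval 1.44 to 1.52, adjusted p = 2.74e-09).

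Glycolysis did not move as a whole, with 6 of 14 genes higher, 6 lower and a median of 0.12, and library totals left 3 higher. Aldoa, the aldolase of muscle and other tissues, rose most among those called (2.33-fold). The members that fell included widespread forms whose muscle counterparts, counted among the genes of muscle-type energy supply, rose. Eno1, the widespread enolase, fell, at 576 and 581 CPM in MT and 963 and 959 CPM in RC (log2 fold change -0.73, 95% interval -0.80 to -0.67, adjusted p = 2.59e-07), while Eno3, the muscle enolase, rose, at 2485 and 2501 CPM in MT and 681 and 639 CPM in RC (log2 fold change 1.92, 95% interval 1.83 to 2.00, adjusted p = 8.84e-09). Pgam1 fell 3.01-fold (87.8 and 96.6 CPM in MT and 288 and 268 CPM in RC) as Pgam2, its muscle counterpart, rose 6.37-fold. Pfkl, liver phosphofructokinase, fell 2.2-fold as Pfkm rose 4.64-fold.

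The same exchange was seen outside glycolysis. The only oxidative phosphorylation subunits to fall were Cox6a1 (109.9 and 116 CPM in MT and 148 and 129.9 CPM in RC) and Cox8a (89.03 and 74.98 CPM in MT and 115 and 104 CPM in RC), both widespread forms of cytochrome c oxidase subunits, and the muscle forms Cox6a2 and Cox8b rose 6.83 and 5.18-fold. The Cox6a1 call did not hold without RC replicate 1 (adjusted p = 0.0573). The muscle glucose transporter Slc2a4 rose 3.51-fold and Slc2a1 fell 1.43-fold. Across 18 pairs of a muscle form and a widespread form, chosen after these values were seen, the muscle form rose in 17 and in 13 of these the widespread form fell. Widespread forms that rose were Atp2a2, Cox7a2 and Ckb, and Ampd2 did not pass the threshold. Cpt1b, the muscle carnitine palmitoyltransferase, was the muscle form that did not pass (0.356 and 1.69 CPM in MT and 0.454 and 2.12 CPM in RC; log2 fold change -0.31, 95% interval -2.35 to 1.74, adjusted p = 0.794), while Cpt1a, its widespread form, fell 3.46-fold. Per kilobase, Pgam2 made up 84.7% and 83.6% of the Pgam1 and Pgam2 total in MT and 21.4% and 21.9% in RC, and Cox6a2 54.4% and 51.4% of its pair in MT and 12% and 11.6% in RC.

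**Figure D3:**
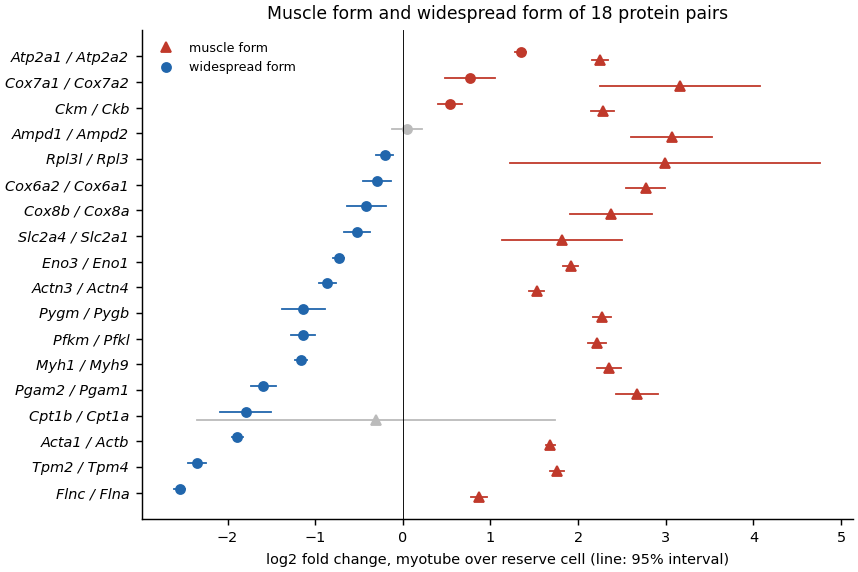
Fitted log2 fold change (MT over RC, x axis) of the muscle form (triangles) and the widespread form (circles) in 18 pairs, with 95% intervals as lines. Red is called higher in MT, blue called lower and grey not past the threshold. Triangles lie to the right of 0 in all pairs but Cpt1b with Cpt1a, and most circles lie to its left.

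Protein and lipid housekeeping separated too. All proteasome subunits but Psmc2 rose, 30 of 31 with a median of 0.76, in a narrow band. Psmb6, a catalytic subunit, measured 217 and 204 CPM in MT and 95.9 and 90.4 CPM in RC (log2 fold change 1.17, 95% interval 1.03 to 1.31, adjusted p = 1.09e-06). Psmc3, an ATPase of the cap, stood at 734 and 722 CPM in MT and 414 and 389.7 CPM in RC (log2 fold change 0.86, 95% interval 0.76 to 0.95, adjusted p = 7.41e-07). Cholesterol synthesis was lower in MT than in RC. 20 of 22 genes of the pathway and its SREBP control fell (median -0.85). Their summed level was 4081 and 4181 CPM in MT and 6663.3 and 6661.5 CPM in RC. In MB it was 1987.3 and 1973.5 CPM, so RC was the high group and MT lay above MB. Lss, lanosterol synthase, was at 90.2 and 91.1 CPM in MT and 288 and 299 CPM in RC (log2 fold change -1.69, 95% interval -1.81 to -1.57, adjusted p = 7.24e-08). Hmgcs1, at the entry of the mevalonate route, measured 497 and 531 CPM in MT and 948 and 952 CPM in RC (log2 fold change -0.89, 95% interval -0.98 to -0.79, adjusted p = 5.71e-07). Dhcr7, which acts at the last steps, was the exception and rose 2.16-fold (308 and 296 CPM in MT and 128 and 152 CPM in RC). In the lysosome and autophagy list 8 rose and 13 fell of 26, and library totals left 5 rises. Ctsl, cathepsin L, rose 1.85-fold and Ctsb, cathepsin B, fell 1.48-fold.

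Transcription factors of the lineage did not share one direction. Mef2c stood at 1173 and 1210.3 CPM in MT and 237 and 248 CPM in RC (log2 fold change 2.30, 95% interval 2.20 to 2.40, adjusted p = 6.86e-09) and Mef2a rose 1.64-fold. Tcf12, an E-protein partner of the myogenic factors, fell 1.6-fold, and Myf5, a factor of undifferentiated myoblasts, 2.69-fold (8.25 and 7.15 CPM in MT and 20.3 and 21.03 CPM in RC). In all 10 of 18 rose and 7 fell. Among genes of fusion 6 rose and 10 fell of 18. Mymk and Itgb1bp2 (3.49-fold) were higher in MT, while Kirrel, a nephrin-type adhesion molecule, was at 49.3 and 51.3 CPM in MT and 280.4 and 295 CPM in RC (log2 fold change -2.52, 95% interval -2.64 to -2.39, adjusted p = 1.34e-08). Dock1, a Rac activator used during fusion, measured 13.1 and 12.6 CPM in MT and 45.1 and 42.9 CPM in RC. Neo1, the netrin receptor neogenin, stood at 87.1 and 92.5 CPM in MT and 211 and 218 CPM in RC.

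Satellite cell genes were mostly lower in MT, 13 of 19 tested (median -2.03). Gas1, a growth arrest protein, was at 37.7 and 39.7 CPM in MT and 221 and 217 CPM in RC (log2 fold change -2.50, 95% interval -2.62 to -2.38, adjusted p = 1.34e-08). Cxcr4, a chemokine receptor, measured 18.8 and 18.5 CPM in MT and 107 and 107 CPM in RC (log2 fold change -2.53, 95% interval -2.73 to -2.32, adjusted p = 1.38e-07). Met, the HGF receptor, stood at 31.4 and 33.7 CPM in MT and 118 and 119.9 CPM in RC (log2 fold change -1.87, 95% interval -2.02 to -1.71, adjusted p = 1.5e-07). For all 3 genes, named for their small adjusted p, both MT libraries lay far below both RC libraries. Itga7, the laminin receptor of muscle, rose 1.44-fold and Ncam1 1.29-fold. Spry1 was called higher at 1.13-fold (adjusted p = 0.0499), within the shift between scalings. Of Notch genes 15 of 19 fell (median -1.15). The receptor Notch2 was at 98.99 and 99.99 CPM in MT and 294 and 324 CPM in RC (log2 fold change -1.64, 95% interval -1.77 to -1.51, adjusted p = 1.14e-07). The ligand Dll1 measured 28.9 and 27.98 CPM in MT and 81.96 and 73.5 CPM in RC (log2 fold change -1.45, 95% interval -1.64 to -1.26, adjusted p = 1.79e-06). Dtx4, a deltex ubiquitin ligase of the pathway, stood at 40.5 and 42.9 CPM in MT and 118 and 123 CPM in RC (log2 fold change -1.53, 95% interval -1.70 to -1.36, adjusted p = 7.48e-07). Heyl, a target, fell 4.08-fold. Hes6, a Hes relative that is not repressive in the usual way, rose 2.09-fold, and the ligand Jag2 1.41-fold. In the list of Id inhibitors, related repressors and the E proteins that Id proteins bind, 10 of 13 fell and 0 rose. The fallers included 3 E proteins, Tcf12 among them. Of the Id genes, Id1 (log2 fold change 0.22, adjusted p = 0.249) and Id4 (0.10, adjusted p = 0.966) did not pass the threshold. Id2 fell slightly (log2 fold change -0.31, adjusted p = 0.0309). Id3 stood at 5.9 and 4.77 CPM in MT and 25.3 and 28.8 CPM in RC (log2 fold change -2.35, 95% interval -2.64 to -2.05, adjusted p = 1.46e-06). Snai2, a zinc-finger repressor, was at 9.03 and 7.5 CPM in MT and 37.2 and 32.7 CPM in RC (log2 fold change -2.09, 95% interval -2.38 to -1.79, adjusted p = 2.73e-06).

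The promoter window of Notch3, the called Notch gene with the smallest adjusted p, is shown beside that result. It lies on the minus strand of chr17:32166841-32167140 and has no match to any of the motifs searched, RBPJ included.
Notch3: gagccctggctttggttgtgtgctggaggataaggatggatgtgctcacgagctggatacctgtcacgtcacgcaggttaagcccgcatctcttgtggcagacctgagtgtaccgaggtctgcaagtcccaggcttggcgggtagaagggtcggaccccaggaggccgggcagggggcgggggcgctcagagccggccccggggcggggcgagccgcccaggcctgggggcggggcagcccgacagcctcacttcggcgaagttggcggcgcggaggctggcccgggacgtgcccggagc
TGGGAA was present in 2 of 15 Notch windows and in 23.1% of all windows.

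Extracellular matrix genes were lower in MT across most of their lists. Of collagen genes 18 of 21 fell (median -2.40), of matrix glycoproteins 30 of 33 (median -2.12) and of matrix proteases and their inhibitors 21 of 26 (median -1.97), beside 28.4% of all genes tested. Fn1, fibronectin, measured 2747 and 2919 CPM in MT and 14092 and 14608 CPM in RC (log2 fold change -2.34, 95% interval -2.41 to -2.27, adjusted p = 2.89e-09). Thbs1, thrombospondin-1, stood at 1022 and 1074 CPM in MT and 5226 and 5347 CPM in RC (log2 fold change -2.34, 95% interval -2.41 to -2.26, adjusted p = 2.89e-09). Col3a1 was at 459.7 and 440.4 CPM in MT and 2483 and 2375 CPM in RC (log2 fold change -2.43, 95% interval -2.51 to -2.35, adjusted p = 2.89e-09). Col1a2 measured 246 and 254 CPM in MT and 1323 and 1284 CPM in RC (log2 fold change -2.38, 95% interval -2.46 to -2.30, adjusted p = 2.89e-09), and both are fibrillar collagens. Col4a1, a basement membrane collagen, stood at 71.04 and 72.1 CPM in MT and 395 and 400.03 CPM in RC (log2 fold change -2.47, 95% interval -2.58 to -2.37, adjusted p = 6.96e-09). The interquartile range of collagen changes ran from -2.46 to -2.15, and these fibrillar and basement membrane members lay close to each other. Mmp2, a gelatinase, was at 64.1 and 63.5 CPM in MT and 367 and 379 CPM in RC (log2 fold change -2.55, 95% interval -2.66 to -2.43, adjusted p = 9.88e-09). Its tissue inhibitor Timp3 measured 119 and 129.8 CPM in MT and 623 and 641 CPM in RC (log2 fold change -2.34, 95% interval -2.46 to -2.22, adjusted p = 1.53e-08). Col7a1 rose 2.67-fold from a low level (13.4 and 11.98 CPM in MT and 4.24 and 5.23 CPM in RC), and Timp2 and Adam19 rose 1.37 and 1.4-fold. The promoter of Col1a2, which together with Col3a1 had the smallest adjusted p of the collagens, lies on the plus strand of chr6:4505368-4505667 and holds no match to the motifs searched.
Col1a2: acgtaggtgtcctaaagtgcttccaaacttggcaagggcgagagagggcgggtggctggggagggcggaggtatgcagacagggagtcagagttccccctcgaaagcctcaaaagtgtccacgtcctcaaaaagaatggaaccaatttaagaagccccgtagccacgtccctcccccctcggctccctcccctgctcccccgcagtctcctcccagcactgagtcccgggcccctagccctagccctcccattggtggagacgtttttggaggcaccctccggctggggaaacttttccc

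The non-muscle actin cytoskeleton fell with the matrix, 20 of 23 genes (median -1.64). Flna, filamin A, stood at 321 and 316 CPM in MT and 1862 and 1859 CPM in RC (log2 fold change -2.54, 95% interval -2.61 to -2.48, adjusted p = 2.69e-09). Actb, beta-actin, was at 413 and 419.8 CPM in MT and 1556 and 1523 CPM in RC (log2 fold change -1.89, 95% interval -1.95 to -1.82, adjusted p = 3.41e-09). Nes, the intermediate filament nestin, and Ezr, the membrane linker ezrin, rose 1.31 and 1.36-fold. Focal adhesion adaptors were divided, with 5 of 19 higher and 9 lower, beside 27.2% and 28.4% of all genes tested. Zyx, zyxin, measured 169.8 and 163 CPM in MT and 549 and 579 CPM in RC (log2 fold change -1.76, 95% interval -1.85 to -1.66, adjusted p = 1.94e-08), whereas Lims2, a PINCH adaptor, rose 3.29-fold and Parvb, a parvin, 1.63-fold, opposite to Parva, which fell 1.98-fold. Integrins and laminins were divided as well (7 higher and 13 lower of 24), with Itgb5 at 188 and 205 CPM in MT and 599 and 588 CPM in RC. Rises in both the adaptor list and the integrin and laminin list were near the share of all genes.

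Growth factor and cytokine genes were mainly lower in MT. In the TGF-beta and BMP list 17 of 30 fell and 4 rose. The BMP antagonist Grem1 stood at 156 and 155 CPM in MT and 942 and 936 CPM in RC (log2 fold change -2.60, 95% interval -2.68 to -2.51, adjusted p = 2.89e-09). Inhbb, an activin subunit, was at 41.1 and 41.9 CPM in MT and 241 and 244 CPM in RC (log2 fold change -2.55, 95% interval -2.70 to -2.40, adjusted p = 2.64e-08). RNA of both, named for their small adjusted p, was far lower in both MT libraries. Fst, follistatin, which binds activins, rose 2.32-fold (334 and 334 CPM in MT and 141 and 148 CPM in RC). Of YAP and TEAD pathway genes 14 of 18 fell, the matricellular targets Ccn2 and Ccn1 by 4.82 and 4.99-fold, while the target Ankrd1, also a sarcomere-associated protein, rose 2.18-fold. Receptor tyrosine kinases, their ligands and feedback genes fell in 21 of 31. Pdgfrb, a PDGF receptor, measured 80.6 and 93.7 CPM in MT and 538 and 524 CPM in RC (log2 fold change -2.61, 95% interval -2.77 to -2.44, adjusted p = 3.62e-08). Fgfr1 stood at 174 and 175 CPM in MT and 379.6 and 398 CPM in RC. Erbb3, a neuregulin receptor, rose 3.21-fold (315 and 309 CPM in MT and 99.6 and 95.1 CPM in RC; log2 fold change 1.68, 95% interval 1.55 to 1.81, adjusted p = 9.46e-08). In the Wnt list 17 of 29 fell, with Fzd1 at 83.7 and 91.4 CPM in MT and 232 and 232 CPM in RC and Fzd7, another Frizzled receptor, higher at 159 and 173 CPM in MT and 97.7 and 98.5 CPM in RC. In the IGF list 8 of 14 fell. The adaptor Irs2 fell 5.39-fold and Irs1 3.14-fold, whereas the ligand Igf2 rose 2.19-fold and H19, the imprinted noncoding RNA beside it, was at 15490 and 14826 CPM in MT and 4883 and 4486 CPM in RC (log2 fold change 1.69, 95% interval 1.60 to 1.79, adjusted p = 2.44e-08).

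Of cytokine genes 12 of 20 fell and 1 rose. Csf1, the macrophage growth factor, measured 59.2 and 65.7 CPM in MT and 232 and 236 CPM in RC (log2 fold change -1.90, 95% interval -2.05 to -1.76, adjusted p = 9.39e-08). Cxcl12 stood at 16.1 and 10.4 CPM in MT and 82.4 and 83.6 CPM in RC (log2 fold change -2.66, 95% interval -3.05 to -2.28, adjusted p = 3.35e-06). Erfe, the hormone erythroferrone, was at 12.9 and 12.2 CPM in MT and 61.3 and 55.8 CPM in RC. Il15 rose 2.75-fold (8.39 and 9.95 CPM in MT and 2.93 and 3.73 CPM in RC). Of interferon and MHC class I genes 14 of 20 fell, B2m, the class I light chain, 2.08-fold. In the complement list 6 of 10 fell, while Cd55, which protects cells from complement, rose 4.33-fold (59.7 and 52.1 CPM in MT and 12.5 and 13.3 CPM in RC). Of Hedgehog genes 7 of 11 fell, with the receptor-side protein Smo at 28.7 and 26.5 CPM in MT and 97.3 and 93.9 CPM in RC. Spp1, osteopontin, and the transcription factor Runx2 fell 4.9 and 4.09-fold, and Cd36, a fatty acid transporter, rose 6.33-fold (99.6 and 92.8 CPM in MT and 16.6 and 13.8 CPM in RC) while Cebpa, an adipogenic factor, fell 4.8-fold.

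Genes of DNA replication and of mitosis were almost all lower in MT. Of DNA replication genes 32 of 33 fell (median -1.69) and of mitosis genes 31 of 32 (median -2.27). Rrm2, the regulated ribonucleotide reductase subunit, measured 85.3 and 85.4 CPM in MT and 249 and 262 CPM in RC (log2 fold change -1.58, 95% interval -1.69 to -1.47, adjusted p = 6.35e-08). Mcm5, of the replicative helicase, stood at 13.7 and 14.1 CPM in MT and 57.5 and 60.4 CPM in RC (log2 fold change -2.08, 95% interval -2.27 to -1.89, adjusted p = 2.74e-07). Top2a, the topoisomerase of chromosome segregation, was at 49.8 and 52.2 CPM in MT and 257 and 263 CPM in RC (log2 fold change -2.35, 95% interval -2.46 to -2.23, adjusted p = 1.34e-08). Ccna2, cyclin A2, measured 20.98 and 19.6 CPM in MT and 98.05 and 97.5 CPM in RC (log2 fold change -2.27, 95% interval -2.43 to -2.11, adjusted p = 7.5e-08). Mitotic changes were tightly grouped, with an interquartile range from -2.43 to -2.13. In MB the mean of Top2a was 571 CPM and that of Ccna2 223 CPM, so RC lay between MB and MT. Ube2c, an APC/C partner, was called higher at 91.6 and 167 CPM in MT and 82.97 and 43.9 CPM in RC. It lost the call under DESeq2 and with library totals (adjusted p = 0.0846 and 0.0572). The call was also lost without MT replicate 2 or RC replicate 2, at log2 fold changes of 0.52 and 0.63. Gins2, a replication factor, was called higher at 1.41-fold and lost the call with library totals (adjusted p = 0.147). It also lost the call without MT replicate 1, MT replicate 2 or RC replicate 1, at log2 fold changes of 0.51, 0.47 and 0.28.

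The promoter window of Top2a lies on the minus strand of chr11:99024140-99024439 and holds the CHR motif on both strands, with capitals at each match.
Top2a: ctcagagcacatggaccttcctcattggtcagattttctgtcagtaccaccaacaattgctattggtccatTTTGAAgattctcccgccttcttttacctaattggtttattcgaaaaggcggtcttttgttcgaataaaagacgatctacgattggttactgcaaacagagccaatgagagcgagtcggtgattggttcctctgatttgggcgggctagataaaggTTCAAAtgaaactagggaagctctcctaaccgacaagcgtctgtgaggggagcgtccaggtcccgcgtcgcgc
On either strand TTTGAA was present in 22 of 28 mitosis windows (78.6%), in 1 of 17 collagen windows, and in 11.9% of all windows. Over all genes at least 2-fold lower the share was 14.9%.

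Of G1 regulators 13 of 18 fell and 3 rose (median -1.02). Ccnd1, cyclin D1, stood at 10.7 and 11.98 CPM in MT and 60.7 and 57.5 CPM in RC (log2 fold change -2.38, 95% interval -2.57 to -2.19, adjusted p = 1.29e-07). Ccne1, cyclin E1, was at 4.34 and 4.42 CPM in MT and 22.5 and 22.5 CPM in RC, whereas Ccnd3, cyclin D3, rose, at 972 and 944 CPM in MT and 433 and 419.8 CPM in RC (log2 fold change 1.17, 95% interval 1.08 to 1.25, adjusted p = 7.5e-08). E2f7, a repressor E2F, fell 4.55-fold and E2f2, an activator, rose 2.12-fold. Of cell cycle inhibitors 8 of 13 fell and 3 rose. Among the latter, Cdkn1a, the CDK inhibitor p21, measured 3295 and 3306 CPM in MT and 1282 and 1183 CPM in RC (log2 fold change 1.42, 95% interval 1.32 to 1.52, adjusted p = 5.91e-08) and Rb1 rose 1.98-fold, while Trp53 fell 2.12-fold. In the chromatin list 17 of 30 fell and 7 rose, and library totals left 2 rises. Dnmt1, the maintenance DNA methyltransferase, fell by 1.84-fold, Uhrf1, its partner, by 5.19-fold, and Hmga2, an architectural protein of immature cells, by 6.5-fold (12.8 and 12.2 CPM in MT and 82.8 and 79.8 CPM in RC).

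**Figure D4:**
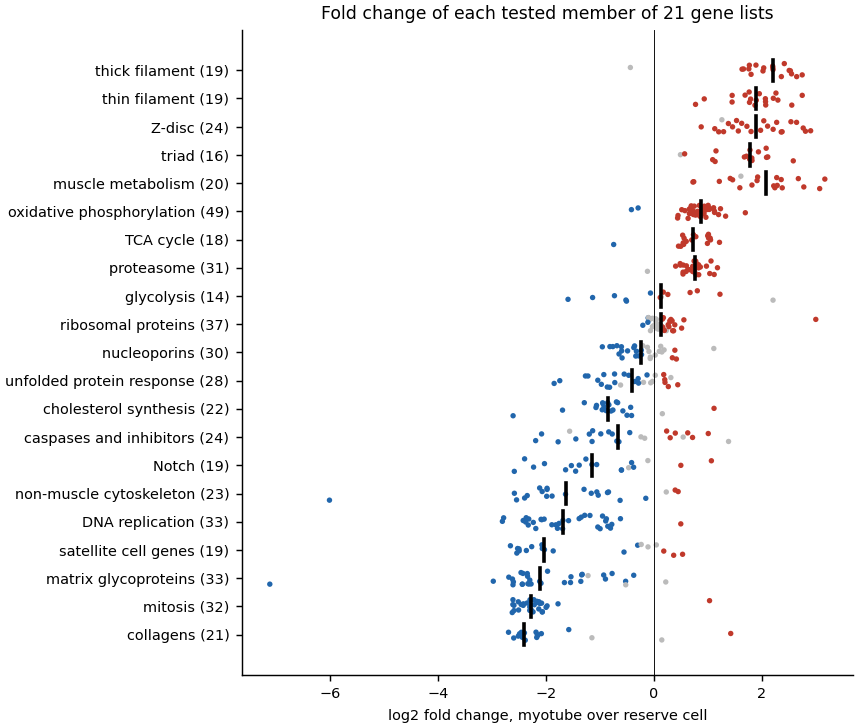
Fold change of each tested member of 21 gene lists. Each point is 1 gene (x axis, fitted log2 fold change of MT over RC), each row 1 list with its number of tested members in brackets, and the black bar the list's median. Red is called higher in MT, blue called lower and grey not past the threshold. Muscle lists lie to the right, mitochondrial and proteasome lists form a narrower band between 0 and them, and matrix and mitosis lists lie to the left, with medians of -2.12 for matrix glycoproteins, -2.27 for mitosis and -2.40 for collagens. The points far to the left in the matrix glycoprotein and cytoskeleton rows, Efemp1 and Cnn1, had 0 counts in both MT libraries, so their fitted size is not a measured fold.

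The study followed some proteins in myotubes and reserve cells given tunicamycin, an inducer of endoplasmic reticulum (ER) stress. These included XIAP, BiP, active caspase-3 and nuclear pore proteins such as Nup153 and Tpr. It followed survivin, caspase-9, caspase-12, PARP, spectrin and Pom121 in differentiating C2C12 cultures, not in the separated populations. RNA of these genes and of their lists, from cells without a drug by the labels, is given here. Xiap, an inhibitor of apoptotic caspases, stood at 44.2 and 49.7 CPM in MT and 79.3 and 81.5 CPM in RC (log2 fold change -0.77, 95% interval -0.96 to -0.59, adjusted p = 6.51e-05). Birc5, survivin, which also serves in mitosis, was at 7.4 and 7.15 CPM in MT and 32.03 and 29.5 CPM in RC (log2 fold change -2.08, 95% interval -2.28 to -1.88, adjusted p = 3.53e-07). The initiator Casp9 stood at 13.6 and 14.5 CPM in MT and 19.2 and 19.3 CPM in RC (log2 fold change -0.45, 95% interval -0.72 to -0.18, adjusted p = 0.0119). The ER-associated Casp12 was at 26.8 and 29.8 CPM in MT and 56.2 and 56 CPM in RC (log2 fold change -0.99, 95% interval -1.25 to -0.72, adjusted p = 1.27e-04). The Casp9 adjusted p was 0.05003 without RC replicate 2. In the whole list 13 of 24 fell and 6 rose (median -0.67), beside 28.4% and 27.2% of all genes tested. The rises were thus near the share of all genes. Cflar, the caspase-8 regulator, fell 2.73-fold, Apaf1, the scaffold of the apoptosome, 2.2-fold, and Sptan1, spectrin alpha, a protease substrate, 1.61-fold (370.4 and 393 CPM in MT and 594 and 637 CPM in RC). Dffa, the inhibitor of the caspase-activated DNase, rose 2.004-fold, and Parp1, a caspase substrate, 1.31-fold (108 and 104 CPM in MT and 79.9 and 81.4 CPM in RC).

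In the Bcl-2 family 8 of 16 rose and 4 fell, and library totals in place of TMM left 3 rises. Bcl2l1, the survival protein Bcl-xL, measured 171 and 154 CPM in MT and 76.9 and 74.9 CPM in RC (log2 fold change 1.10, 95% interval 0.88 to 1.32, adjusted p = 2.36e-05). Among BH3-only killers the direction differed, with Bid and Pmaip1 higher (1.76 and 1.69-fold) and Bmf and Bcl2l11, which encodes Bim, lower (4.06 and 2.75-fold). Bcl2 itself fell 2.06-fold. Of calpains and their inhibitor 4 rose and 5 fell of 10. Capn1 stood at 185 and 175 CPM in MT and 91.7 and 85.9 CPM in RC (log2 fold change 1.02, 95% interval 0.84 to 1.19, adjusted p = 8.92e-06), Capn2 fell 1.32-fold, the inhibitor Cast fell 1.38-fold, and Capn3, the muscle calpain, rose 3.3-fold (38.5 and 56.7 CPM in MT and 12.9 and 16.01 CPM in RC).

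Genes of the unfolded protein response and ER folding were mostly lower in MT. Hspa5, the ER chaperone BiP, did not pass the threshold (570.3 and 602 CPM in MT and 618 and 606 CPM in RC; log2 fold change -0.06, 95% interval -0.15 to 0.03, adjusted p = 0.216), with an interval well inside 2-fold, though with library totals it stood at -0.27 (adjusted p = 3.45e-04). In the whole list 17 of 28 fell and 5 rose. Calr, calreticulin, was at 550.4 and 571 CPM in MT and 1152 and 1155 CPM in RC (log2 fold change -1.04, 95% interval -1.12 to -0.96, adjusted p = 9.7e-08). Hsp90b1, the ER HSP90, measured 439 and 423 CPM in MT and 761 and 764 CPM in RC (log2 fold change -0.82, 95% interval -0.90 to -0.75, adjusted p = 2.88e-07). P4hb, a disulphide isomerase, stood at 394 and 393 CPM in MT and 786 and 763 CPM in RC. Edem1, a degradation factor, was at 16.8 and 15.8 CPM in MT and 60.2 and 56.9 CPM in RC (log2 fold change -1.85, 95% interval -2.03 to -1.67, adjusted p = 3.32e-07). Dnajb11, an ER co-chaperone, rose 1.36-fold. The other rises, Dnajb9, Herpud1, Xbp1 and Asns, were between 1.13 and 1.2-fold and within or near the shift between scalings, where Herpud1, Xbp1 and Asns changed sign and none of the 4 was called. Each of the 4 also lost its call without RC replicate 2 (adjusted p from 0.14 to 0.195) and without MT replicate 1 (adjusted p from 0.0602 to 0.17).

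Nucleoporins, which build the nuclear pore, changed little. 16 of 30 fell, 3 rose, 11 did not pass and none was called at 2-fold or more (median -0.23). Aaas, aladin, fell most among those called, at 19.6 and 18.2 CPM in MT and 37.1 and 36.1 CPM in RC (log2 fold change -0.96, 95% interval -1.14 to -0.77, adjusted p = 2.03e-05), followed by Seh1l (1.76-fold) and Nup205 (1.7-fold). Pom121, a membrane nucleoporin, measured 53.5 and 49.97 CPM in MT and 72.6 and 72.6 CPM in RC (log2 fold change -0.49, 95% interval -0.65 to -0.33, adjusted p = 4.49e-04). Nup214 stood at 66.3 and 65.6 CPM in MT and 75.7 and 89.8 CPM in RC (log2 fold change -0.33, 95% interval -0.53 to -0.12, adjusted p = 0.0149), a call lost without MT replicate 2 or RC replicate 2 (adjusted p = 0.0532 and 0.0842). Nup153 (109 and 113 CPM in MT and 105 and 114 CPM in RC; log2 fold change 0.02, 95% interval -0.13 to 0.17, adjusted p = 0.7999) and Tpr (221 and 226 CPM in MT and 231 and 238 CPM in RC; log2 fold change -0.07, 95% interval -0.17 to 0.03, adjusted p = 0.194), both of the nuclear basket, did not pass the threshold. Ranbp2, of the cytoplasmic filaments, rose 1.27-fold (335 and 384 CPM in MT and 278 and 290.4 CPM in RC), and Nup88 and Rae1 rose 1.33 and 1.31-fold. With library totals, 1 nucleoporin was higher and 20 lower, among them Tpr (-0.28, adjusted p = 5.69e-04) and Nup153 (-0.18, adjusted p = 0.0357). Nup210, a muscle-induced membrane nucleoporin, was at 7.89 and 4.94 CPM in MT and 2.37 and 3.57 CPM in RC (log2 fold change 1.11, 95% interval 0.08 to 2.13, adjusted p = 0.0646) and was called with the Day 7 libraries alone (adjusted p = 0.0313), with protein-coding genes alone (adjusted p = 0.0369) and without MB replicate 1 or 2 (adjusted p = 0.0421 and 0.043), but not under the other alternatives, where its adjusted p reached 0.311 without MT replicate 1, at a log2 fold change of 0.73. Transport receptors and Ran cycle genes rose in 12 and fell in 9 of 28. Kpna1, an importin alpha, rose 1.96-fold, while Kpna2, another, fell 1.64-fold and Kpnb1, importin beta, 1.4-fold. Rises numbered 6 with library totals, and 7 without MT replicate 2, without RC replicate 2 or without a filter on low counts. At the lamina, Lmnb1, lamin B1, measured 13.2 and 16.4 CPM in MT and 47.01 and 46.2 CPM in RC (log2 fold change -1.65, 95% interval -1.89 to -1.40, adjusted p = 4.09e-06) and Syne2, nesprin-2, fell 3.21-fold, whereas Syne1, nesprin-1, rose 1.97-fold and Plpp7, an envelope protein of muscle, 4.27-fold.

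**Figure D5:**
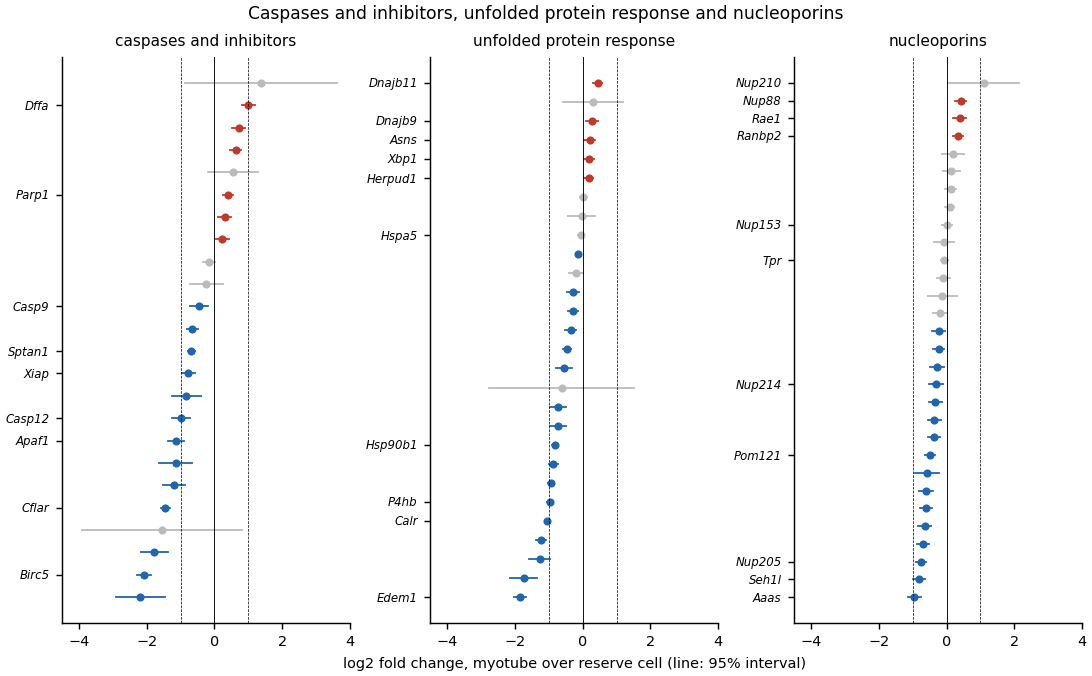
Fitted log2 fold change (MT over RC, x axis) with 95% intervals as lines, for each tested gene of 3 lists, with the genes described in the text labelled. Red is called higher in MT, blue called lower and grey not past the threshold, and dashed lines mark 2-fold. Caspases spread to beyond 2-fold lower, while every called nucleoporin lies between the dashed lines.

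RNA-binding and general genes closed the picture. Ribosomal protein genes scarcely moved (median 0.13), with 18 of 37 higher and 3 lower under TMM but 5 higher and 13 lower under library totals, so no direction is given. Without MT replicate 1, and likewise without RC replicate 2, 11 were higher. Among splicing regulators, Ptbp1, the repressor of muscle exons, stood at 102 and 91.6 CPM in MT and 274 and 269 CPM in RC (log2 fold change -1.49, 95% interval -1.62 to -1.36, adjusted p = 2.32e-07). Mbnl1 was at 181 and 187 CPM in MT and 453 and 486 CPM in RC (log2 fold change -1.35, 95% interval -1.47 to -1.24, adjusted p = 1.87e-07), and Rbm24 and Rbm38, which promote muscle splicing and mRNA stability, rose 2.16 and 3.65-fold. Fxr1, an RNA-binding protein of muscle, rose 2.33-fold (596 and 619 CPM in MT and 264 and 258 CPM in RC). Of immediate early genes 12 of 20 fell, Egr1 by 2.67-fold (72.4 and 73.4 CPM in MT and 188 and 201 CPM in RC) and Fosl1, an AP-1 subunit, by 6.59-fold, while Egr3 and Nr4a1 rose 2.28 and 2.37-fold. Metallothioneins Mt1 and Mt2 fell 3.54 and 4.09-fold, and the peroxidases Gpx4 and Prdx6 rose 1.84 and 1.8-fold. Of 14 common reference genes 4 rose, 4 fell and 6 did not pass (median 0.05), a share of calls close to that of all genes (55.6%). Actb fell 3.7-fold, Gusb 2.37-fold and Ppia 1.27-fold, and Sdha rose 1.46-fold, while Tuba1a did not pass the threshold (976 and 1043 CPM in MT and 929.8 and 965 CPM in RC; log2 fold change 0.09, 95% interval -0.01 to 0.19, adjusted p = 0.102).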

How the data were processed

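PolyA RNA of C2C12 cells was sequenced in 6 libraries, 2 each of Day 0 myoblasts, Day 7 myotubes and Day 7 reserve cells, grouped by their titles. The authors deposited estimated counts per transcript and library, as whole numbers not scaled for depth, which they made by mapping reads to mm10 with HISAT2, filtering with SAMtools and quantifying with StringTie, according to the methods and the submitters' processing notes. Their versions were not found in the labels or methods. A matrix of the whole series held the same estimated counts doubled and was not used. The authors' processing notes also name DESeq2, and none of their comparisons was used.

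Transcript counts were summed to genes with GENCODE M21 on the same assembly. Of 142604 transcripts, 141374 had a gene there. The other 1230 did not and were each kept as a feature of their own. Among the genes tested, 281 were such features, of which 62 were called higher and 37 lower. All 6 libraries were fitted with the quasi-likelihood test of edgeR 4.0.16 (R 4.3.3), with TMM factors and a filterByExpr minimum of 10 counts, as the contrast of myotubes minus reserve cells. Genes were called at a Benjamini-Hochberg adjusted p under 0.05 over all 15467 genes tested. The step was tested on simulated counts in which only a small set of genes was changed, in myotubes alone. That test therefore does not bear on the choice of scaling. P-values and intervals rest on 2 replicates a group and on at least 15658875 counts in each library.

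Named genes were the 15 largest called changes in each direction with at least 10 CPM in a group and no overlap of libraries, up to 5 members of each gene list by adjusted p, members called against a list in the minority, genes the study followed, and markers. The few named outside this rule (Mylk4, Cpt1b and members of isoform pairs) were chosen after their values were seen. The comparison, gene lists and markers were chosen with earlier results of these data known. Alternatives were DESeq2 1.42.0, other scalings, filters, samples and features, each library left out, and a replicate block. Same-numbered libraries did not deviate together across genes (correlations of -0.03 between myotubes and reserve cells, 0.00 between myotubes and myoblasts and 0.04 between reserve cells and myoblasts). The number was not taken as a pairing in the main fit. Since low-count genes weigh equally in these correlations, they cannot exclude that same-numbered libraries shared a culture. A pairing by number was fitted as the replicate block. Promoter windows are RefSeq sequences of GRCm38.p6, the assembly also called mm10. A few list members are not reported individually here.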

Additional observations from a re-analysis of the deposited data

How the results depend on the processing

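Main counts were 4200 genes higher, 4398 lower, 1459 and 2168 by at least 2-fold, and 2050 by glmTreat. They stayed within 1.5 times of these under DESeq2 (which gives no glmTreat count), RLE factors, library totals, no filter, the 4 Day 7 libraries alone, no mitochondrially encoded genes and protein-coding genes alone. With transcripts in place of genes, which split each gene's counts, there were 1703 higher, 2096 lower, 904 by at least 2-fold higher and 789 by glmTreat, and with at least 10 CPM in 2 libraries, where fewer genes were tested (10394), 921 were at least 2-fold higher. The replicate block gave 4083 higher and 4300 lower, and among 408 named genes it changed the call of Spry1 only. Library totals turned the sign of Spry1 (-0.0261), Herpud1 (-0.0267), Xbp1 (-0.0076), Asns (-0.0031), Nup153 (-0.18) and Tuba1a (-0.11) on the log2 scale, the last 2 then called lower. TMM factors, which this choice leaves out, were 0.899 and 0.889 for the MT libraries and 1.03 for each RC library. Leaving out 1 library gave 3407 to 4046 higher, 3776 to 4223 lower, 1253 to 1453 and 1993 to 2130 by at least 2-fold, and 1709 to 2005 by glmTreat. List counts then ran from 17 to 18 for the thick filament, 18 to 19 thin filament, 23 to 24 Z-disc, 46 to 47 oxidative phosphorylation, 30 to 31 proteasome, 14 to 15 Notch, 16 to 18 collagens, 29 to 30 matrix glycoproteins, 12 to 16 nucleoporins, 12 to 14 caspases and 16 to 17 ER stress genes, and stood at 19 for muscle metabolism, 20 cholesterol, 32 replication and 31 mitosis in every case. Between 10 and 13 of 408 named genes lost their call without an MT or RC library. With 2 replicates a group, small changes were not the only unstable ones. Some of the largest fitted changes moved as well. Pcdhga3 went from -3.20 to -1.24 without RC replicate 1, and Ramp2 from -4.64 to -3.01 without RC replicate 2.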
